A study of Mus musculus with 16 samples.

Results

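Brown and beige fat cells burn fuel to make heat. Ucp1 lets protons leak across the inner mitochondrial membrane, so that respiration releases heat instead of driving ATP synthesis. Noradrenaline switches this on through beta-adrenergic receptors and cyclic AMP, and the regulators Prdm16, Ebf2 and Ppargc1a set up the identity and the mitochondrial content of such cells. In mice, subcutaneous fat is the depot in which beige cells arise most readily among white adipocytes. The 10 genes described here are established members of this programme: the regulators Prdm16, Ebf2 and Ppargc1a, the effectors Ucp1, Cidea, Dio2, Cox7a1 and Cox8b, and the membrane proteins Otop1 and Kcnk3. They were taken by symbol, and all 10 are among the 23420 genes of the count files.

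The libraries came from 8 male C57BL/6 mice, 4 whose labels give an adipocyte-specific Trib1 knockout and 4 wild-type, where Trib1 encodes a pseudokinase that brings target proteins to a ubiquitin ligase. Every mouse gave adipocytes, released from subcutaneous fat by collagenase, and whole liver, so there were 4 groups of 4 libraries. Single mice are named by label (KO for knockout-labelled, WT for wild-type) and number. KO-1151 and KO-1152 were taken at postnatal day 70 and KO-1137 and KO-1139 at day 76, while WT-1153 was taken at day 70 and the other WT mice at day 76. The labels name neither the Cre driver nor the deleted stretch of Trib1, and no cold exposure or drug is given for any mouse.

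Trib1 itself was not lower in the knockout-labelled adipocytes, with 1071 CPM in KO-1137, 1273 in KO-1139, 1408 in KO-1151 and 1345 in KO-1152, against 752 CPM in WT-1135, 925 in WT-1136, 1226 in WT-1138 and 1293 in WT-1153 (log2 change 0.28 ± 0.18 (SE), adjusted p = 0.241 by edgeR's quasi-likelihood test). The libraries are therefore called knockout-labelled throughout. Counts over the whole gene do not check a deletion of part of it. CPM are counts scaled by library size and TMM factors within each tissue. Total counts ran from 28560887 to 53716669 per library. Isolation left adipocyte markers far above the rest, with a summed 65498 to 73655 CPM over 11 genes in knockout-labelled adipocytes and 46938 to 67413 CPM in wild-type adipocytes. Markers of blood vessels and connective tissue were lower in the knockout-labelled adipocytes, where 17.1% of all genes tested were called lower and 18% higher: all 8 endothelial genes, 6 of 8 fibroblast and progenitor genes and 7 of 8 mural cell genes passed the test downward. Of the markers of other cells, 3 of 8 lymphocyte genes, 1 of 4 tested skeletal muscle genes and 1 of 5 Schwann cell genes were called lower, and 0 of 8 macrophage genes were called. Of 9 hepatocyte genes 5 were tested, 3 were higher and 1, Alb, was lower (median log2 change 1.47), while their summed level was 28.9 to 44.9 CPM in knockout-labelled and 47.8 to 125 CPM in wild-type adipocytes. None of the 6 epithelial genes was high enough to test. The summed endothelial markers lay at 178 to 401 CPM in knockout-labelled and 647 to 1873 CPM in wild-type adipocytes, the fibroblast and progenitor markers at 338 to 705 CPM in knockout-labelled and 757 to 955 CPM in wild-type adipocytes. The mural markers lay at 109 to 179 CPM in knockout-labelled and 271 to 411 CPM in wild-type adipocytes, so these 3 sums did not overlap between the labels. In such bulk libraries, fewer cells of a type and less RNA per cell cannot be told apart.

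**Figure D1:**
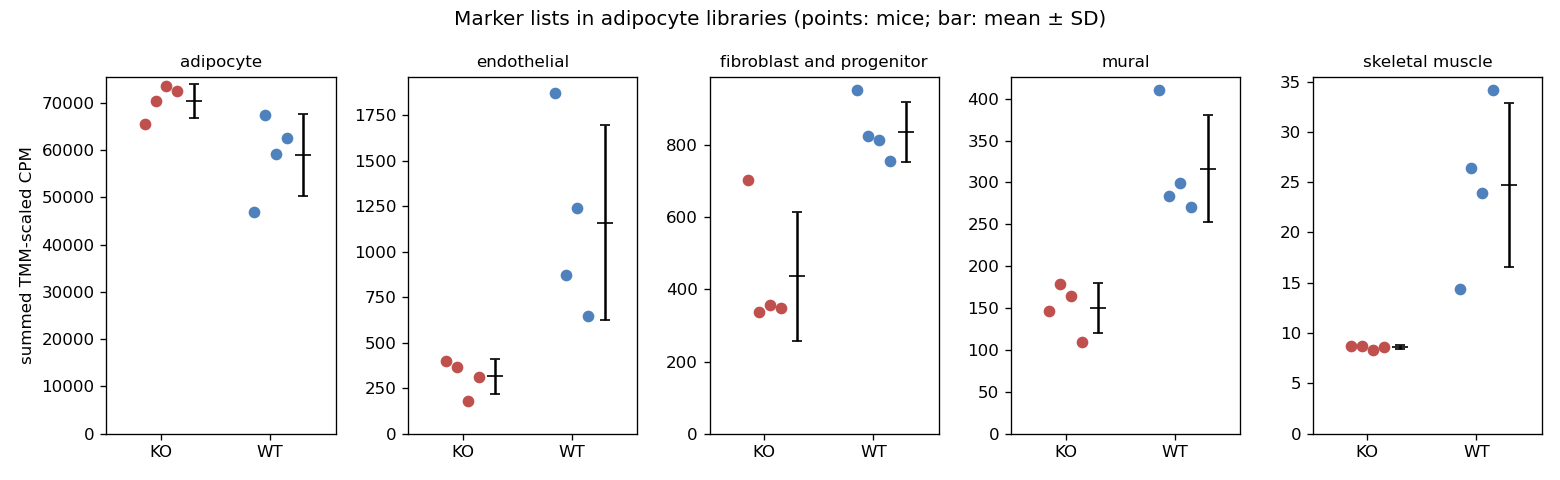
Summed TMM-scaled CPM of 5 marker lists in the adipocyte libraries, 1 point per mouse, with mean ± SD (n = 4 per group) and knockout-labelled mice (KO) left of wild-type mice (WT). The endothelial, fibroblast, mural and skeletal muscle sums were all lower in the knockout-labelled libraries, and KO-1137, the leftmost red point, had the highest fibroblast sum of its group at 705 CPM.

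In adipocytes the 10 thermogenic genes did not move as 1 block. Dio2, Cox7a1, Kcnk3 and Ppargc1a were higher in the knockout-labelled mice, and Cidea, Otop1 and Prdm16 were lower. Ucp1, Cox8b and Ebf2 did not pass the test. All 10 passed the filter on low counts, so 7 of 10 were called at an adjusted p under 0.05, where 35.2% of the 13795 genes tested were called, 18% higher and 17.1% lower. The median log2 change of the 10 was 0.05, beside -0.01 over all genes tested. The CPM of the groups did not overlap for 4 of the 10, Cidea, Prdm16, Cox7a1 and Kcnk3, where 33.9% of all genes tested had groups that did not overlap. The mice were separate animals, so each p measures the spread between mice.

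**Figure D2:**
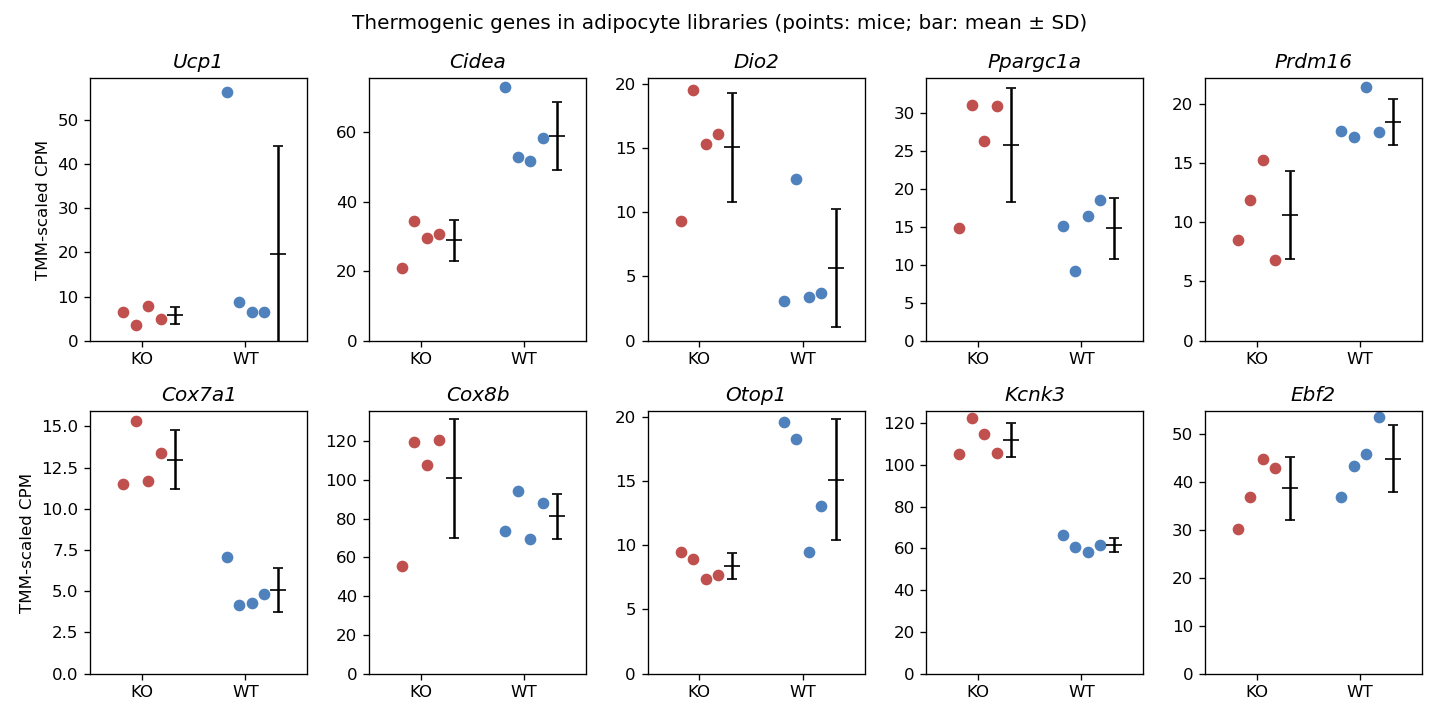
TMM-scaled CPM of the 10 genes in each adipocyte library, 1 point per mouse in the order of the mouse numbers, with mean ± SD (n = 4 per group), knockout-labelled mice (KO) left of wild-type mice (WT), each panel on its own linear axis from 0. Ucp1 in the wild-type group rests on WT-1135 at 56.5 CPM, while for Kcnk3 and Cox7a1 every knockout-labelled mouse lies above every wild-type mouse.

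Dio2, Ppargc1a and Ucp1 are shown by the 250 bases before their RefSeq start on GRCm38.p6, since cyclic AMP signalling is the classic input to them. Capitals mark the letters TGACG, which is the core of the cyclic AMP response element TGACGTCA, on either strand, and in Dio2 also the TATA box letters TATAAA.
Dio2, chr12:90739039-90739288, minus strand: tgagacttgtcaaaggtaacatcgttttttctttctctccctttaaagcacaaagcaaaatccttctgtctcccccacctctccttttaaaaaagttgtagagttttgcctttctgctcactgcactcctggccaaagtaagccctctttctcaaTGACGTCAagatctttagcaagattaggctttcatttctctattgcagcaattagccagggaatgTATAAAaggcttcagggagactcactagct
Ppargc1a, chr5:51567726-51567975, minus strand: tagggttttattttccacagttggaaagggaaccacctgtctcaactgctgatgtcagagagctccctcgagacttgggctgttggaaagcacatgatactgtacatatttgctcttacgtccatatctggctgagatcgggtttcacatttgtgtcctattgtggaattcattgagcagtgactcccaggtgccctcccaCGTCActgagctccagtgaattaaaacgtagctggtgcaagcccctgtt
Ucp1, chr8:83290098-83290347, plus strand: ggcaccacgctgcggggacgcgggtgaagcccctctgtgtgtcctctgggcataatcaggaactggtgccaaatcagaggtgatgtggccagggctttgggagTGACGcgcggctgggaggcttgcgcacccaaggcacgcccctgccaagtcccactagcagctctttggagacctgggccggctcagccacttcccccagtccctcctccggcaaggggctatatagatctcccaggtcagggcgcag
The RefSeq promoter table held 7 of the 10 genes. Searched on both strands, TGACGTCA was found in 1 of these 7 windows, that of Dio2, and in 1.55% of 32851 promoter windows of the same length. TGACG, which every TGACGTCA also contains, was found in 3 of the 7 windows, the 3 printed here, and in 17.8% of all windows. TATAAA was found in 1 of the 7 windows, that of Dio2, and in 12.4% of all windows. The oestrogen-related receptor element TCAAGGTCA, found in 0.387% of all windows, the EBF palindrome CCCNNGGG, in 11.8%, and the nuclear receptor direct repeat, in 0.0335%, were in none of the 7. A match is a run of letters and shows no binding.

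Prdm16 is the transcriptional regulator that turns precursors towards the brown fate and keeps beige cells beige. The gene lies on chromosome 4 (154316125 to 154636873, minus strand, GRCm38). It was at 8.53 CPM in KO-1137, 11.8 in KO-1139, 15.2 in KO-1151 and 6.81 in KO-1152, against 17.7 CPM in WT-1135, 17.2 in WT-1136, 21.4 in WT-1138 and 17.6 in WT-1153. All 4 knockout-labelled mice lay below all 4 wild-type mice, and Prdm16 was lower by the test (log2 change -0.80 ± 0.22 (SE), adjusted p = 0.0203 by edgeR). The wild-type values are close together apart from WT-1138, and without that mouse the change was -0.72 with an adjusted p of 0.0572. Within day 76 it was -0.88, and within day 70, with 2 mice against 1, it was -0.65 with an adjusted p of 0.322.

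Ebf2, a transcription factor that marks brown and beige precursors and opens brown fat enhancers, lies on chromosome 14 (67233292 to 67430918, plus strand). It was at 30.0 CPM in KO-1137, 36.8 in KO-1139, 44.6 in KO-1151 and 42.8 in KO-1152, against 36.7 CPM in WT-1135, 43.2 in WT-1136, 45.7 in WT-1138 and 53.4 in WT-1153. The groups overlapped in part of their range, and the change did not pass the test (log2 change -0.22 ± 0.15, adjusted p = 0.272 by edgeR). Within day 76 it was -0.32 and within day 70 it was -0.27. It passed in 4 alternatives, with library totals alone at -0.40, with scaling by adipocyte markers at -0.49, with age as a covariate at -0.31 and with the stromal markers as a covariate at -0.90. The antisense gene Gm10860, which the files do not list, covers 424 exon bases of Ebf2, and without a known strand setting such reads cannot be told apart.

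Ppargc1a encodes the coactivator that drives mitochondrial biogenesis and is itself induced by cyclic AMP. The gene lies on chromosome 5 (51454250 to 51567726, minus strand). It was at 14.9 CPM in KO-1137, 31.0 in KO-1139, 26.3 in KO-1151 and 30.8 in KO-1152, against 15.1 CPM in WT-1135, 9.15 in WT-1136, 16.4 in WT-1138 and 18.5 in WT-1153. KO-1137 lay inside the wild-type range and the other knockout-labelled mice lay above it. Ppargc1a was higher by the test (log2 change 0.80 ± 0.26, a 1.74-fold difference, adjusted p = 0.0386 by edgeR), close to the threshold. The call was lost in 13 of 20 alternatives, among them limma-voom (0.78, adjusted p = 0.0509) and leaving out KO-1152 (0.71), KO-1139 (0.70), KO-1151 (0.79), WT-1138 (0.86), WT-1135 (0.79) or WT-1136 (0.63), and its direction was kept in all 20. Within day 76 the change was 0.76 (adjusted p = 0.174 by edgeR), and within day 70, with 2 mice against 1, it was 0.64.

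Ucp1, the uncoupling protein, lies on chromosome 8 (83290352 to 83298452, plus strand). It was at 6.56 CPM in KO-1137, 3.57 in KO-1139, 7.91 in KO-1151 and 4.79 in KO-1152, against 56.5 CPM in WT-1135, 8.74 in WT-1136, 6.52 in WT-1138 and 6.46 in WT-1153. WT-1135 stood 8.66-fold above the median of the other 3 wild-type mice, which overlapped with the knockout-labelled mice. The difference did not pass the test (log2 change -1.78 ± 0.71, adjusted p = 0.0759 by edgeR), and without WT-1135 it was -0.36. It passed without WT-1153 (-2.07, adjusted p = 0.0428) and with scaling by adipocyte markers (-2.20, adjusted p = 0.0387). Within day 76 the log2 change was -2.23, and within day 70 it was -0.01.

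WT-1135 was also the highest wild-type mouse for Cidea, Cox7a1, Otop1 and Kcnk3, and the lowest for Dio2 and Ebf2. Over all genes tested it was the highest of its group for 34.3%. It had the highest endothelial sum of the 8 adipocyte libraries, 1873 CPM, and the lowest adipocyte sum, 46938 CPM. The part of these markers in the Ucp1 values was not tested.

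Cidea, a lipid droplet protein and a common marker of brown fat cells, lies on chromosome 18 (67343604 to 67367785, plus strand). It was at 20.8 CPM in KO-1137, 34.6 in KO-1139, 29.4 in KO-1151 and 30.6 in KO-1152, against 72.9 CPM in WT-1135, 53.0 in WT-1136, 51.6 in WT-1138 and 58.5 in WT-1153. The highest knockout-labelled mouse lay well under the lowest wild-type mouse. Cidea was 2.05-fold lower (log2 change -1.03 ± 0.16, adjusted p = 0.00185 by edgeR). The change was -1.09 within day 76, where it passed the test, and -0.95 within day 70, with 2 mice against 1.

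Dio2, the deiodinase that makes active thyroid hormone inside the cell and is a cyclic AMP target, lies on chromosome 12 (90724552 to 90738438, minus strand). It was at 9.33 CPM in KO-1137, 19.5 in KO-1139, 15.4 in KO-1151 and 16.1 in KO-1152, against 3.08 CPM in WT-1135, 12.6 in WT-1136, 3.41 in WT-1138 and 3.68 in WT-1153. WT-1136 lay inside the knockout-labelled range and the other wild-type mice lay below it. Dio2 was 2.66-fold higher (log2 change 1.41 ± 0.45, adjusted p = 0.0365 by edgeR). The call was lost without KO-1152 (1.38), KO-1139 (1.26), KO-1151 (1.41), WT-1138 (1.23), WT-1135 (1.18) or WT-1153 (1.24), while without WT-1136 the change was 2.16. Within day 76 it was 1.18 with an adjusted p of 0.247. Within day 70, with 2 mice against 1 and without WT-1136, it was 2.11.

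Cox7a1 and Cox8b encode the versions of 2 cytochrome c oxidase subunits that heart, skeletal muscle and brown fat use. Cox7a1, on chromosome 7 (30184144 to 30186078, plus strand), was at 11.5 CPM in KO-1137, 15.3 in KO-1139, 11.7 in KO-1151 and 13.4 in KO-1152, against 7.04 CPM in WT-1135, 4.17 in WT-1136, 4.29 in WT-1138 and 4.83 in WT-1153. The groups did not overlap, and Cox7a1 was 2.55-fold higher in the knockout-labelled mice (log2 change 1.35 ± 0.19, adjusted p = 0.001 by edgeR), at 1.38 within day 76 and 1.39 within day 70. The call was kept in all 20 alternatives. Skeletal muscle markers summed to 8.35 to 8.71 CPM over 13 genes in knockout-labelled adipocytes and 14.4 to 34.1 CPM in wild-type adipocytes. Of these genes 4 were tested and 1 was called lower. The part of muscle RNA in the Cox7a1 values was not tested.

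Cox8b, on the same chromosome (140898945 to 140900446, minus strand), was at 55.4 CPM in KO-1137, 120 in KO-1139, 108 in KO-1151 and 120 in KO-1152, against 73.6 CPM in WT-1135, 94.2 in WT-1136, 69.5 in WT-1138 and 88.0 in WT-1153. KO-1137 lay below every wild-type mouse and the other knockout-labelled mice lay above every one of them. The difference did not pass the test (log2 change 0.31 ± 0.22, adjusted p = 0.299 by edgeR). Without KO-1137 it was 0.52 with an adjusted p of 0.0086. Within day 76 it was 0.14 and within day 70 it was 0.39.

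KO-1137 was the lowest knockout-labelled mouse for 7 of the 10 genes (Cidea, Dio2, Ppargc1a, Cox7a1, Cox8b, Kcnk3 and Ebf2), where 33.6% of all genes tested were lowest there. Its summed fibroblast, macrophage, endothelial and lymphocyte markers, at 705, 438, 401 and 38.2 CPM, were the highest of its group. Its adipocyte and hepatocyte sums, 65498 and 28.9 CPM, were the lowest, and its mural and Schwann cell sums, 146 and 94.4 CPM, lay between. The part of these markers in its values was not tested.

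Kcnk3, the potassium channel TASK-1, is reported in mouse brown adipocytes to limit Ucp1 activity and beta-adrenergic signalling. The gene lies on chromosome 5 (30588170 to 30625271, plus strand). It was at 105 CPM in KO-1137, 122 in KO-1139, 115 in KO-1151 and 106 in KO-1152, against 66.3 CPM in WT-1135, 60.6 in WT-1136, 58.5 in WT-1138 and 61.6 in WT-1153. Kcnk3 had the smallest spread within groups, relative to its mean, of the 10 genes, and its groups lay far apart. It was 1.82-fold higher (log2 change 0.86 ± 0.08, adjusted p = 0.000107 by edgeR), at 0.88 within day 76 and 0.86 within day 70, and the call was kept in all 20 alternatives. The antisense gene Gm9899 covers 229 of its exon bases, so reads of the pair cannot be told apart without a strand setting.

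Otop1, a proton channel found in brown fat, lies on chromosome 5 (38275972 to 38304217, plus strand). It was at 9.49 CPM in KO-1137, 8.92 in KO-1139, 7.39 in KO-1151 and 7.67 in KO-1152, against 19.6 CPM in WT-1135, 18.3 in WT-1136, 9.47 in WT-1138 and 13.1 in WT-1153. The knockout-labelled mice were close together, and WT-1138 sat at the top of their range. Otop1 was 1.80-fold lower (log2 change -0.85 ± 0.22, adjusted p = 0.0141 by edgeR), and -0.78 within each age. At day 76 the adjusted p was 0.136.

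The endothelial, fibroblast and mural sums separated the labels, and a fit with the mean level of those markers as a covariate was compared with the plain fit. With the covariate, Kcnk3 (0.89), Cox7a1 (1.75) and Ebf2 (-0.90) were the members called. Cidea kept its value (-1.03) with an adjusted p of 0.135, Prdm16 was at -1.16 with an adjusted p of 0.195, and Otop1, Dio2 and Ppargc1a were at -0.30, 0.67 and 0.22. Ucp1 and Cox8b turned direction, to 0.87 and -0.41, without passing the test. Over all genes the covariate left 479 calls, against 4849 without it. Because these markers separated the labels, label and covariate are confounded, and this fit cannot tell them apart.

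**Figure D3:**
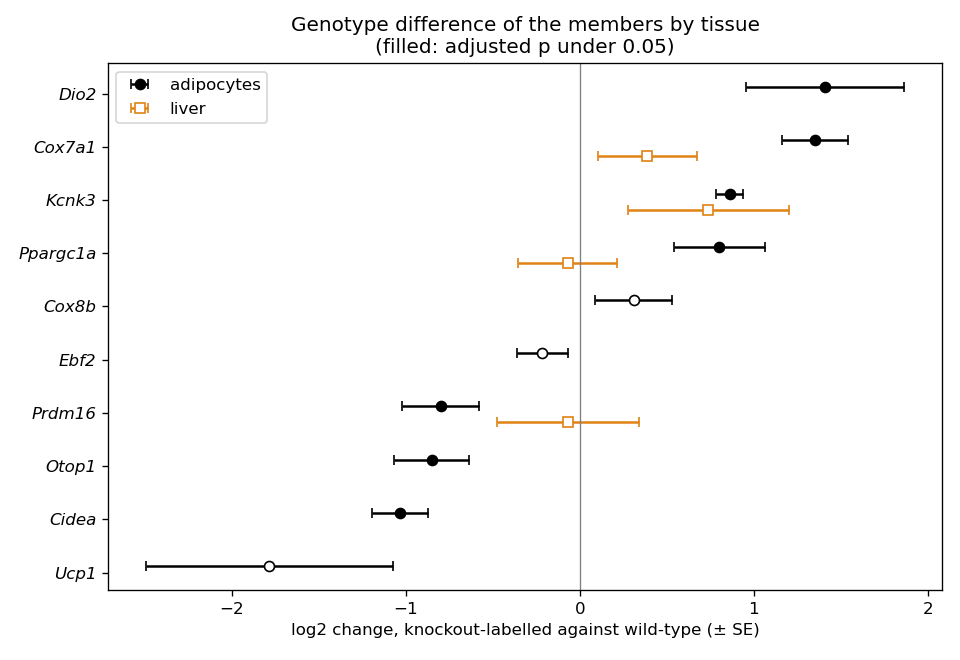
Log2 change with its SE for knockout-labelled against wild-type libraries, in adipocytes for all 10 genes (black circles) and in liver for the 4 genes that passed the count filter there (orange squares), with filled symbols for an adjusted p under 0.05. In adipocytes 4 genes lie to the right with filled symbols and 3 to the left, and no liver value is filled.

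Compared per kilobase of exon, which allows levels of different genes to be set side by side, Cox8b was the highest of the 10 in both groups, at 280 ± 85.6 CPM per kilobase in knockout-labelled and 226 ± 32.4 in wild-type adipocytes (SD, n = 4 each). In knockout-labelled adipocytes Kcnk3 (28.2), Cidea (25.9) and Cox7a1 (24.3) came next with ranges that overlapped between neighbours, then Ebf2 (5.57), Ppargc1a (3.91), Ucp1 (3.49), Dio2 (2.59) and Otop1 (2.43), also overlapping in turn, and Prdm16 (1.14) last. The Prdm16 range lay under that of Otop1 and overlapped with that of Dio2. In wild-type adipocytes the order was Cidea (52.9), Kcnk3 (15.5), Ucp1 (11.9), Cox7a1 (9.50), Ebf2 (6.46), Otop1 (4.39), Ppargc1a (2.24), Prdm16 (1.98) and Dio2 (0.978). There, Cidea stood apart from its neighbours and Cox7a1 from Ebf2, and the other neighbours overlapped. The place of Ucp1 rests on WT-1135 at 34.5 CPM per kilobase, and WT-1136 (5.34), WT-1138 (3.98) and WT-1153 (3.95) lay below every wild-type value of Cox7a1. Dio2 had a higher mean than Prdm16 in knockout-labelled adipocytes and the lowest mean of these genes in wild-type adipocytes.

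The relatives of each gene are set beside it, and no difference between a gene and its relatives was tested. Of 17 relatives, 14 were tested in adipocytes, 2 were higher and 2 lower, with a median log2 change of 0.11, where 35.2% of all genes were called. Cox7a2, the widely expressed partner of Cox7a1, was also higher (0.35 ± 0.12, adjusted p = 0.0465 by edgeR), a call lost in 11 of 20 alternatives. The difference between both changes was not tested. Per kilobase, Cox7a1 made up 11.7 ± 0.83% of the sum of both in knockout-labelled adipocytes and 6.30 ± 2.10% in wild-type adipocytes (SD, n = 4 each), with no overlap between 10.6% to 12.6% in knockout-labelled and 4.75% to 9.38% in wild-type adipocytes. Cox8a, the widely expressed partner of Cox8b, was higher (0.37 ± 0.08, adjusted p = 0.00817 by edgeR), at 0.10 without a call under adipocyte marker scaling, and the Cox8b share was 25.0 ± 5.62% in knockout-labelled and 26.2 ± 1.99% in wild-type adipocytes.

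Ucp2, a mitochondrial carrier of immune and other cells, was lower (-1.02 ± 0.27, adjusted p = 0.017 by edgeR). The change was about as large without KO-1139 (-0.94, adjusted p = 0.0514) or KO-1152 (-0.94, adjusted p = 0.0524) and at day 76 only (-0.91, adjusted p = 0.0639), where the call was lost. It turned to 0.21 with the stromal markers as a covariate. Ucp3 was at 0.02 ± 0.13. Cidec, the white fat droplet protein, had 3703 ± 417 CPM in knockout-labelled and 3864 ± 1177 CPM in wild-type adipocytes (SD, n = 4 each) and did not pass the test (-0.06 ± 0.21). Cidea was 1.28 ± 0.23% of the per-kilobase sum of Cidea, Cideb and Cidec in knockout-labelled and 2.73 ± 1.27% in wild-type adipocytes. Ebf4 was lower (-1.72 ± 0.40, adjusted p = 0.00996 by edgeR) at 0.162 mean CPM in knockout-labelled and 0.534 in wild-type adipocytes, a call lost within day 76 (-1.97, adjusted p = 0.0542), within day 70 (-0.88) and with the stromal covariate (-0.66). Ebf1 (0.19), Ebf3 (-0.39), Ppargc1b (0.47), Pprc1 (0.05), Mecom (-0.39), Cox7a2l (0.17), Cideb (0.85) and Dio3 (0.54) did not pass the test. Dio1, Otop2 and Otop3 had a count of 0 in every adipocyte library. At 95% confidence 0 allows up to 3 counts, 0.0558 to 0.0814 CPM, for counting error only.

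**Figure D4:**
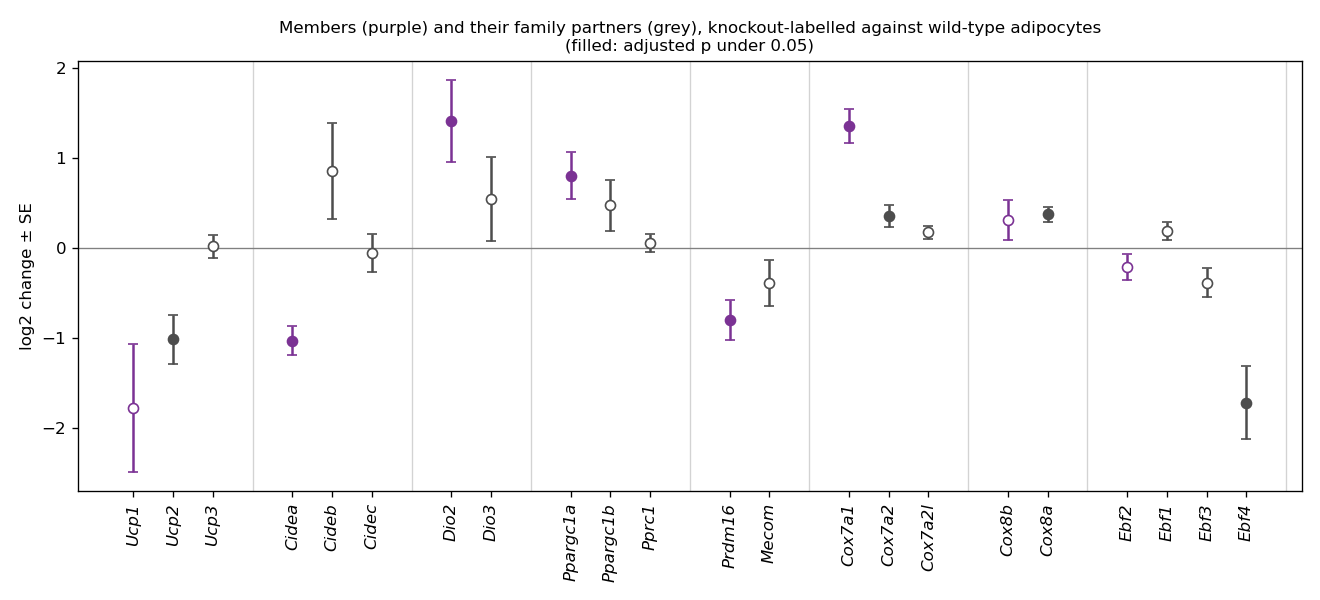
Log2 change with its SE for knockout-labelled against wild-type adipocytes, for 8 of the 10 genes (purple) beside their tested relatives (grey), with filled symbols for an adjusted p under 0.05; Otop1 and Kcnk3 have no tested relative here. Cox7a1 at 1.35 lies well above Cox7a2 at 0.35, and Cidea at -1.03 lies below Cidec at -0.06.

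Most other subunits of cytochrome c oxidase were higher. Of 13 followed, 12 were tested, 10 were higher and 1 was lower, with a median log2 change of 0.49, where 18% of all genes were called higher and 17.1% lower. Cox5a was at 219 ± 22.2 CPM in knockout-labelled and 134 ± 14.8 CPM in wild-type adipocytes (0.71 ± 0.11, adjusted p = 0.00141 by edgeR), Cox7b at 0.79 ± 0.14 and Cox5b at 0.55 ± 0.09. Cox4i2, an oxygen-regulated isoform of subunit IV, was the lower one (-1.12 ± 0.36). With scaling by adipocyte markers, which moved the median of all genes by -0.28, Cox5a, Cox5b and Cox7b stayed higher, at 0.44, 0.27 and 0.52, while Cox7a2 and Cox8a, at 0.085 and 0.096, did not pass the test. The other subunits were not followed through the alternatives.

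Genes of beta-adrenergic and cyclic AMP signalling were tested for all 18 members, of which 8 were higher and 3 lower (median 0.13), where 18% of all genes were called higher and 17.1% lower. Their log2 changes ran from -1.69 to 1.36, and the gene at -1.69 is not among those named here. Adrb3, the main beta-adrenergic receptor of mouse adipocytes, was at 820 ± 125 CPM in knockout-labelled and 472 ± 92.7 CPM in wild-type adipocytes (SD, n = 4 each; log2 change 0.79 ± 0.16, adjusted p = 0.00538 by edgeR). Prkar2b, a regulatory subunit of protein kinase A, was higher by 0.79 ± 0.16 and Rgs2, a brake on G protein signalling, by 1.36 ± 0.22. Adrb1 was lower (-0.91 ± 0.25, adjusted p = 0.0204 by edgeR) at 4.51 mean CPM in knockout-labelled and 8.48 in wild-type adipocytes.

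Among 23 other regulators of the programme, 20 were tested, 4 were higher and 1 was lower (median 0.18), where 35.2% of all genes were called. Klb, the co-receptor for Fgf21, was higher by 1.18 ± 0.15, Nrg4, a secreted factor of brown fat, by 0.68 ± 0.15, and Pparg, the master regulator of adipocyte differentiation, by 0.40 ± 0.08, a call lost in 6 of 20 alternatives. Pparg is also among the adipocyte markers, of which 3 of 11 were higher. Esrra, a partner of Ppargc1a, was higher by 0.56 ± 0.15 and Fgfr1 was lower (-0.37 ± 0.10). Of 10 repressors 9 were tested, none was higher and 2 were lower, Rbl1 (-0.67 ± 0.11) and Twist1 (-0.71 ± 0.13), where 17.1% of all genes were lower. Tle3, which competes with Prdm16, was at 0.57 ± 0.22 with an adjusted p of 0.0678.

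Other brown fat effectors split. All 17 were tested, 7 were higher and 5 lower (median 0.23), where 18% and 17.1% of all genes were. The log2 changes ran from -5.18 to 4.49, and the gene at -5.18 is not among those named here. Elovl3, a fatty acid elongase induced by cold in brown fat, was at 31.2 ± 14.8 CPM in knockout-labelled and 1.36 ± 0.81 CPM in wild-type adipocytes (log2 change 4.49 ± 0.46, adjusted p = 0.000206 by edgeR). Mpc2, a subunit of the mitochondrial pyruvate carrier, was higher by 1.47 ± 0.14, Clstn3, whose adipocyte form sits at lipid droplets in mice, by 1.78 ± 0.23 and Letmd1, a mitochondrial protein of brown fat, by 0.58 ± 0.09. Slc27a2, a fatty acid transporter and acyl-CoA synthetase, was lower (-3.32 ± 0.40, adjusted p = 0.000502 by edgeR) at 0.331 mean CPM in knockout-labelled and 3.34 in wild-type adipocytes. In liver, Slc27a2 was at 2110 mean CPM in knockout-labelled and 1971 in wild-type mice. Elovl3, which went the other way in adipocytes, was at 157 in knockout-labelled and 185 in wild-type livers. Liver RNA as a source of their adipocyte counts was not tested. Plin5, a droplet protein, was lower by the test (-0.61 ± 0.17), as was S100b (-1.17 ± 0.22), which also marks Schwann cells.

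Markers proposed for beige adipocytes split as well, with 13 of 14 tested, 3 higher and 4 lower (median 0.02), where 18% and 17.1% of all genes were. Slc36a2, an amino acid transporter of the fat cell surface, was at 990 ± 106 CPM in knockout-labelled and 325 ± 28.9 CPM in wild-type adipocytes (1.61 ± 0.11, adjusted p = 3.51e-05 by edgeR), and Klhl13 was higher by 0.85 ± 0.13. Sp100 (-1.69 ± 0.25) and Car4 (-1.71 ± 0.28) were lower. Cited1 and Tnfrsf9 were also lower, both under 2 mean CPM in either group.

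Genes of heat production that does not use Ucp1 had 10 of 15 members tested, 3 higher and 3 lower (median -0.01), where 18% and 17.1% of all genes were. Their log2 changes ran from -2.35 to 0.74, and the gene at -2.35 is not among those named here. Pm20d1, which makes N-acyl amino acids that uncouple mitochondria, was lower (-1.95 ± 0.24, adjusted p = 0.000528 by edgeR) at 1.67 mean CPM in knockout-labelled and 6.45 in wild-type adipocytes. In liver it was at 86.5 mean CPM in knockout-labelled and 96.6 in wild-type mice, and liver RNA as a source of its adipocyte counts was not tested. The ADP/ATP carriers Slc25a5 (0.71 ± 0.10) and Slc25a4 (0.48 ± 0.08) were higher, as was Gpd2 (0.74 ± 0.16), and Ckb, the creatine kinase of the futile creatine cycle, was lower (-0.77 ± 0.15).

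The stromal marker covariate touched these lists too. With it, Mpc2 (1.33), Elovl3, Slc27a2, Slc36a2, Twist1 and Pm20d1 kept their calls, and the other genes named by the rule lost theirs. Of these, Rgs2 (1.44), Adrb3 (1.09), Klb (0.96), Rbl1 (-0.78), Klhl13 (0.70), Cox5a (0.52), Slc25a4 (0.39) and Pparg (0.30) had changes within 1.5 times of those without the covariate. Sp100 (-0.63), Slc25a5 (0.45), Cox5b (0.35), Cox7b (0.31), Prkar2b (0.31) and Nrg4 (0.23) had smaller ones, in the same direction. The genes of these lists that are named outside the rule for named genes were not followed through the alternatives.

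In liver, a tissue without a classical Ucp1 programme, 6 of the 10 genes were too low to be tested. Summed over the 4 knockout-labelled livers, the counts were 0 for Dio2, 2 for Otop1, 0 for Ebf2, 4 for Cox8b, 6 for Cidea and 1 for Ucp1. Summed over the 4 wild-type livers, they were 2 for Dio2, 2 for Otop1, 8 for Ebf2, 18 for Cox8b, 36 for Cidea and 20 for Ucp1. A single library, WT-1138, held all 20 of the wild-type Ucp1 counts and 30 of the 36 Cidea counts. At 95% confidence a zero count allows up to 3 counts per liver library, or 0.0613 to 0.105 CPM, for counting error only.

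Of the 4 genes tested in liver, 0 were called, where 0.0226% of 13288 genes were called (3 genes). At an unadjusted p under 0.05 none of these 4 passed, where 8.62% of genes did (1146). DESeq2 called 0.783% of genes in liver (104) and 0 of these 4, and gave an adjusted p for 1 of them. Ppargc1a serves the fasting response in liver. There it was at 24.0 CPM in KO-1137, 29.5 in KO-1139, 14.5 in KO-1151 and 13.5 in KO-1152. Wild-type livers were at 16.9 CPM in WT-1135, 25.3 in WT-1136, 29.3 in WT-1138 and 13.9 in WT-1153. The livers taken at day 70, of KO-1151, KO-1152 and WT-1153, lay below every liver taken at day 76. They also had the highest total counts of the livers, 46247411 to 48961818 against 28560887 to 35616678 at day 76. Age and sequencing depth cannot be told apart here. The log2 change of Ppargc1a between the labels was -0.07 ± 0.28 (adjusted p = 0.96 by edgeR). Cox7a1 was at 0.39 ± 0.29, Kcnk3 at 0.74 ± 0.46 from 12 to 20 counts in knockout-labelled and 2 to 16 counts in wild-type livers, and Prdm16 at -0.07 ± 0.41.

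The difference between the genotype effects of the tissues was tested for the same 4 genes, and 1 was called, where 23.4% of 12320 genes were called. The Cox7a1 change was larger in adipocytes than in liver by 0.96 ± 0.32 on the log2 scale (adjusted p = 0.0373 by edgeR). With the mouse as a replicate block it was 0.98 with an adjusted p of 0.0678, and the call was also lost with limma-voom (0.91), with library totals alone (0.72) and without KO-1152 (0.92), KO-1137 (0.94), KO-1139 (0.86), WT-1138 (0.74) or WT-1136 (0.79). For Kcnk3 the difference between tissues was 0.14 ± 0.34 (adjusted p = 0.794 by edgeR), for Ppargc1a 0.88 ± 0.42 (adjusted p = 0.139) and for Prdm16 -0.74 ± 0.44 (adjusted p = 0.242).

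Between tissues, adipocytes stood above liver for nearly all of these genes. In knockout-labelled mice 9 of 10 were called, all higher in adipocytes, where 79.8% of genes were called, 40.4% higher. In wild-type mice 10 of 10 were called, 9 of them higher, where 77.6% of genes were called, 40.5% higher. Kcnk3 differed by 7.61 ± 0.11 in knockout-labelled and 7.46 ± 0.27 in wild-type mice on the log2 scale, Prdm16 by 4.82 ± 0.35 in knockout-labelled and 5.54 ± 0.22 in wild-type mice, and Cox7a1 was 8.85-fold higher in the adipocytes than in the livers of knockout-labelled mice and 4.49-fold higher in those of wild-type mice. Ppargc1a was the exception. On the scale shared by both tissues it was at 20.9 ± 6.13 CPM in knockout-labelled adipocytes and 23.7 ± 8.86 CPM in their livers (SD, n = 4 each; log2 difference -0.18 ± 0.29, adjusted p = 0.582 by edgeR). In wild-type mice it was at 12.6 ± 3.42 CPM in adipocytes and 26.5 ± 8.66 CPM in liver (-1.07 ± 0.26, adjusted p = 0.00296 by edgeR), a call lost with library totals alone (-0.42).

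The genes most like Ucp1 across the 8 adipocyte libraries, after each genotype's mean was taken off, were Bahd1 (Pearson r 0.98), 9430015G10Rik (0.98), D11Wsu47e (0.98), Hoxb8 (0.97) and Pot1b (0.95), out of 12144 genes compared. They were picked for these values, so no test is given, and all comparisons share the same 8 libraries. Without WT-1135 and KO-1151, the libraries farthest from the median of Ucp1, r was 0.93, 0.85, 0.95, 0.88 and 0.96 over the remaining 6. Spearman's rho over the 8 was 0.98, 0.93, 0.95, 0.88 and 0.88. Of the thermogenic genes Cox7a1 (0.63) and Otop1 (0.58) came nearest to Ucp1, at ranks 1063 and 1464, and Ebf2 was at -0.52.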

How the data were processed

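Per the labels' protocols, poly-A RNA libraries of collagenase-isolated adipocytes and of liver were made with a TruSeq kit and sequenced on a NextSeq instrument. The submitters' processing notes name featureCounts 1.5.0, STAR 2.5.2b, bcl2fastq 2.17 and the build mm10. Which annotation, strand setting and multi-mapping rule the authors used is not given in the sources used here. Each deposited file has the raw read counts of 1 library over 23420 gene symbols. Of counts from 1 to 20, 77.9% were even, so low counts are not independent molecules, and limits at 0 cover counting error only.

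Members and gene lists were chosen with earlier results of these data known. Groups came from the titles. The test was edgeR 4.0.16 (R 4.3.3) with TMM, filterByExpr, quasi-likelihood tests, two-sided, and Benjamini-Hochberg adjustment over all genes tested, with an adjusted p under 0.05 as a call. Each tissue was fitted alone, and tissue differences were fitted over all 16 libraries or the 8 of a genotype label. The SE of a log2 change is its size divided by the square root of F. Alternatives used DESeq2 1.42.0 and limma 3.58.1, other scalings and filters, halved counts, each mouse left out, age, adipocyte marker scaling and the stromal markers as a covariate. CPM carry their SD. Per-kilobase values use exon lengths and coordinates of GENCODE M21 (GRCm38), which placed all 10 genes, and promoters are RefSeq's. The scripts were tested on simulated counts.

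Named genes were the 10 members, Trib1, all relatives, up to 3 tested genes with the smallest p from each other list, and the 5 genes averaging 1 CPM or more that correlated best with Ucp1. Esrra, Fgfr1, Cox4i2, Adrb1, Clstn3, Letmd1, Plin5, S100b, Car4, Cited1, Tnfrsf9, Gpd2 and Ckb were named after their values were seen. By the labels, a mouse number pairs its adipocyte with its liver library, and the paired deviations from group means correlated at -0.0918 to 0.142 across genes. The lowest chi-square per degree of freedom between libraries of 1 group was 32.1, far above counting error.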

Additional observations from a re-analysis of the deposited data

Results flagged for a closer look

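Of 120 groups of 4 libraries tested with Dixon's ratio, 17 had a library far from the others. The ratio's rate of about 1 group in 20 by chance assumes normally distributed values. Where all other libraries of a group are at 0, any count is flagged, so the number flagged cannot be set against that rate. In wild-type adipocytes the flagged values were Ucp1 at 56.5 CPM, D11Wsu47e at 5.11 CPM, Hoxb8 at 5.21 CPM and Pot1b at 7.80 CPM, all in WT-1135, Dio2 at 12.6 CPM in WT-1136 and Prdm16 at 21.4 CPM in WT-1138. The genes D11Wsu47e, Hoxb8 and Pot1b had been picked for their likeness to Ucp1. In knockout-labelled adipocytes they were Ucp2 at 72.2 CPM in KO-1137, against 34.4 to 38.0 CPM in the others, Ebf1 at 83.7 CPM in KO-1139, the lowest of its group, Klb at 121 CPM and Twist1 at 24.1 CPM in KO-1152, and Prkar2b at 2323 CPM in KO-1151.

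In liver the flagged values rest on few counts. In knockout-labelled livers, Ucp1 was at 0.034 CPM in KO-1137, from 1 count, and Otop1 at 0.0397 CPM in KO-1151, from 2 counts. In wild-type livers, Ucp1 was at 0.578 CPM (20 counts), Cidea at 0.868 CPM (30 counts) and Otop1 at 0.0578 CPM (2 counts) in WT-1138, and Dio2 was at 0.043 CPM in WT-1153, from 2 counts.

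The genotype effect on Cox7a1 differed between adipocytes and liver by 0.96 on the log2 scale (adjusted p = 0.0373 by edgeR's interaction test). Both tissues came from the same mice, and with the mouse as a replicate block the difference was 0.98 with an adjusted p of 0.0678, so that the call was lost, as it was in 8 of 14 alternatives in all.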

How the results depend on the processing

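Of the 10 genes, 7 were called in adipocytes, against 4 at day 76 only and 3 with the stromal covariate, and 4 to 8 with a mouse left out, 4 of them without WT-1138. Over all genes, 4849 calls in adipocytes became 1730 at day 76, 1595 at day 70 and 479 with the stromal covariate. In liver, 3 calls over all genes became 104 with DESeq2, 5 without a count filter, 0 at day 76 and 1 to 3 with a mouse left out. For the difference between tissues, 1 called member became 0 with limma-voom, library totals alone, a filter of at least 1 CPM in 4 libraries (which removed Cox7a1) or the mouse as a replicate block, and 0 to 1 with a mouse left out, and 2885 calls over all genes became 1875 to 3067, the lowest without WT-1135 and 1884 without KO-1151. The replicate block changed no other call. Library totals alone moved the median of all genes by -0.19 and the share of higher calls to 24.9%, against 51.3%, and scaling by adipocyte markers moved it by -0.28 and to 16.7%. The stromal covariate turned Ucp1 (0.87), Cox8b (-0.41), Trib1 (-0.39), Ucp2 (0.21), Ppargc1b (-0.31), Mecom (0.40) and Tle3 (-0.18). Library totals alone turned Ucp3 (-0.18), Pprc1 (-0.14), Cox7a2l (-0.024), Ebf1 (-0.0003992), Bahd1 (-0.055), the Kcnk3 tissue difference (-0.083) and Ppargc1a between knockout-labelled tissues (0.23). Adipocyte marker scaling turned Ucp3 (-0.28), Pprc1 (-0.24), Cox7a2l (-0.11), Ebf1 (-0.099), Bahd1 (-0.15) and D11Wsu47e (-0.081). The stricter filter turned Ucp3 (-0.0079), and limma-voom the Kcnk3 tissue difference (-0.11). Day 70 alone turned Cideb (-0.10), Cidec (0.077), Dio3 (-0.0055), Mecom (0.16), liver Ppargc1a (0.0084) and liver Prdm16 (0.50). Day 76 alone turned Ppargc1b (-0.016) and liver Ppargc1a (0.17), and age as a covariate liver Ppargc1a (0.11) and liver Prdm16 (0.070). With a mouse left out, Ucp3 ran from -0.062 to 0.10, Cidec from -0.23 to 0.15, Pprc1 from -0.0066 to 0.12, liver Ppargc1a from -0.30 to 0.12, liver Prdm16 from -0.26 to 0.092, the Kcnk3 tissue difference from -0.40 to 0.40 and Ppargc1a between knockout-labelled tissues from -0.42 to 0.075. None of these values in turned direction passed the test, and the causes were not tested. Low counts in liver limit what can be seen there.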
